A study of Homo sapiens with 6 samples.

Results

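Small nucleolar RNA host genes carry small nucleolar RNAs (snoRNAs) in their introns, and those named as host genes are mostly noncoding. The set described here was chosen by name, as every row called SNHG followed by a number together with GAS5, ZFAS1, DANCR and EPB41L4A-AS1, with a value in at least 4 of the 6 deposited tables. The name rule matched 32 rows, and 30 of the 60325 gene rows met both conditions. A value in all 6 libraries was listed for 28 of the 30, and all 28 entered the tests. SNHG22 had no value in the IL-6 library of 24 h and SNHG28 had none in the control library of 48 h, while SNHG18 and SNHG27 had no value in any library and are not members.

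After splicing, the introns of these genes are trimmed to snoRNAs. Box C/D snoRNAs (SNORD) guide ribose methylation of ribosomal RNA, H/ACA snoRNAs (SNORA) guide its pseudouridylation, and small Cajal body RNAs (SCARNA) act in the same way on spliceosomal RNA. The spliced exons that remain are exported, and in many hosts they hold only short reading frames. Ribosomes that stop on these frames expose the RNA to nonsense-mediated decay, so that the steady level of such hosts is known to rise when translation is blocked. Several hosts begin with a terminal oligopyrimidine (TOP) tract, a C followed by a run of C and T at the first transcribed bases, which ties their translation to growth signalling through mTOR. GAS5 was named for its accumulation in growth-arrested cells.

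The libraries came from THP-1 cells, a human line that was established from a monocytic leukaemia. Cells were either controls or received recombinant human interleukin-6 (IL-6), a cytokine that signals through the gp130 receptor chain and STAT3, and total RNA was taken at 6, 24 and 48 h. The 6 groups were control 6 h, control 24 h, control 48 h, IL-6 6 h, IL-6 24 h and IL-6 48 h, each with 1 library, and the labels give neither the dose nor what the controls received. The stated aim of the series was to find the expression changes that IL-6 causes in these cells.

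The sequences around the annotated start show which hosts have the letters of a TOP tract. RefSeq promoter windows (GRCh38.p14) matched 26 members by symbol, and SNHG6, SNHG9, SNHG15 and SNHG25 had none. A start at a C followed by at least 4 bases that are each C or T, read on the gene's own strand, was found in 6 of the 26 (23.1%), against 1429 of 35116 promoter windows (4.07%) and 19 of 46 windows of protein-coding snoRNA hosts (41.3%). Each line below runs from 20 bases before the RefSeq start to 40 bases from it, and the capitals mark the run that begins at the start. The positions are chr20:49278622-49278681 (+) for ZFAS1, chr5:139274081-139274140 (+) for SNHG4, chr6:85678694-85678753 (-) for SNHG5, chr1:28581834-28581893 (-) for SNHG12, chr16:2155319-2155378 (-) for SNHG19 and chr6:31834896-31834955 (+) for SNHG32.
ZFAS1: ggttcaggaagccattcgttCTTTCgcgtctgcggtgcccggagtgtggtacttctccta
SNHG4: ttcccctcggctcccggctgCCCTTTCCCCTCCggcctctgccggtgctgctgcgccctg
SNHG5: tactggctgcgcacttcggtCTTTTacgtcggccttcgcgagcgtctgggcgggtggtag
SNHG12: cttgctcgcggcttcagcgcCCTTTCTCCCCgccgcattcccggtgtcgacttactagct
SNHG19: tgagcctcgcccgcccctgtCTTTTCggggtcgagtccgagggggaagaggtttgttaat
SNHG32: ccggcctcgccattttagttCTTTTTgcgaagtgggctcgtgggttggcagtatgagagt
The run is a match of letters at an annotated start, and its absence says only that these letters are not there. The RefSeq windows of GAS5 (chr1:173869006-173869065) and SNHG14 (chr15:24823588-24823647) lie wholly outside the gene intervals listed with the values. For these genes the letters at the start of the listed interval were not read.

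Deposited values were on a log2 scale with the mean of each gene set to 0 over its libraries, so a value compares libraries of 1 gene and says nothing of the level of 1 gene against another. A difference of 1 between libraries is a doubling, and 1.5-fold is the size used below to count larger differences. The depth in reads is unknown. All 10 monocytic marker genes had 6 values, whereas none of 5 erythroid and platelet markers and none of 6 epithelial and fibroblast markers did. Of the T and NK cell markers 1 of 5 had 6 values (NKG7, which rose by 1.01 from 6 to 48 h), and of the B cell markers 3 of 4. Among the monocytic markers FCGR1A, an Fc receptor gene, was higher with IL-6 by 0.65 (SE 0.10, limma adjusted p = 0.0351), and LYZ, lysozyme, fell by 1.78 from 6 to 48 h (SE 0.14, limma adjusted p = 0.000511). At 48 h the IL-6 minus control difference of the 10 was above 0 in 5, with a median of 0.03. It ran from -0.68 in MPO to 3.76 in CD14, and was 1.59 in ITGAM. From 24 to 48 h in the IL-6 arm 9 of the 10 were higher, with a median of 0.49. Their part in the values of the host genes was not tested. Library medians over the 13528 tested genes lay between -0.0502 and 0.0907. Fewer cells of a type and less RNA per cell cannot be told apart in such bulk libraries. Because neither the cDNA amplification nor the library kit marks strand, reads of overlapping genes cannot be told apart. Of the 30 members, 21 overlap a protein-coding gene, 18 with a gene on the opposite strand and 6 with a gene on the same strand, among the latter SNHG3 in RCC1, SNHG4 in MATR3, SNHG14 with SNRPN and SNHG20 with SEC14L1. The snoRNAs themselves were hardly measured by this poly(A)-primed protocol. Inside the members' intervals lay 138 snoRNA or scaRNA rows, of which 5 had any value, and of 841 such rows in the whole series 787 had none. A row of this kind lay wholly inside 29 members on the same strand. GAS5 had none among the rows analysed, which does not say that it carries no snoRNA.

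The host RNAs were mostly higher in the IL-6 library than in its control at 6 and 24 h and mostly lower at 48 h. At 6 h, 22 of the 28 members were higher with IL-6 and 6 were lower, and their median log2 difference was 0.31, against 0.02 over all tested genes, 52.3% of which were above 0. At 24 h the count was again 22 higher and 6 lower, with a median of 0.28 against -0.07, where 43.5% of all tested genes were above 0. At 48 h, 7 members were higher and 21 lower, with a median of -0.25 against -0.04, where 55.1% of all tested genes were below 0. Each of these differences compares 2 libraries, with no replicate and no p-value.

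Members with larger differences were as follows. At 6 h, 5 members were at least 1.5-fold higher with IL-6 (8.52% of all tested genes), namely SNHG25, SNHG3, SNHG9, SNHG26 and SNHG21, and SNHG31 alone was at least 1.5-fold lower (8.59% of all). At 24 h, SNHG26, SNHG19, SNHG25, DANCR and SNHG9 were at least 1.5-fold higher (7.94% of all) and no member was that much lower (12.9% of all). At 48 h no member was at least 1.5-fold higher (8.69% of all), and SNHG31, SNHG19, SNHG12 and SNHG9 were at least 1.5-fold lower (9.21% of all). Of the genes named here, SNHG25, SNHG26 and SNHG31 were near the lowest level accepted for testing, as given below. Within each gene, the difference between IL-6 and control was lowest at 48 h in 22 of 28 members, against 35.3% of all tested genes. It was above 0 at 6 and 24 h and below 0 at 48 h in 12 of 28, against 15.0% of all. SNHG3, SNHG15, SNHG16, SNHG26 and SNHG30 were higher with IL-6 at all 3 times, and EPB41L4A-AS1 alone was lower at all 3, together 6 of 28 members against 30.7% of all tested genes that kept 1 direction.

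**Figure D1:**
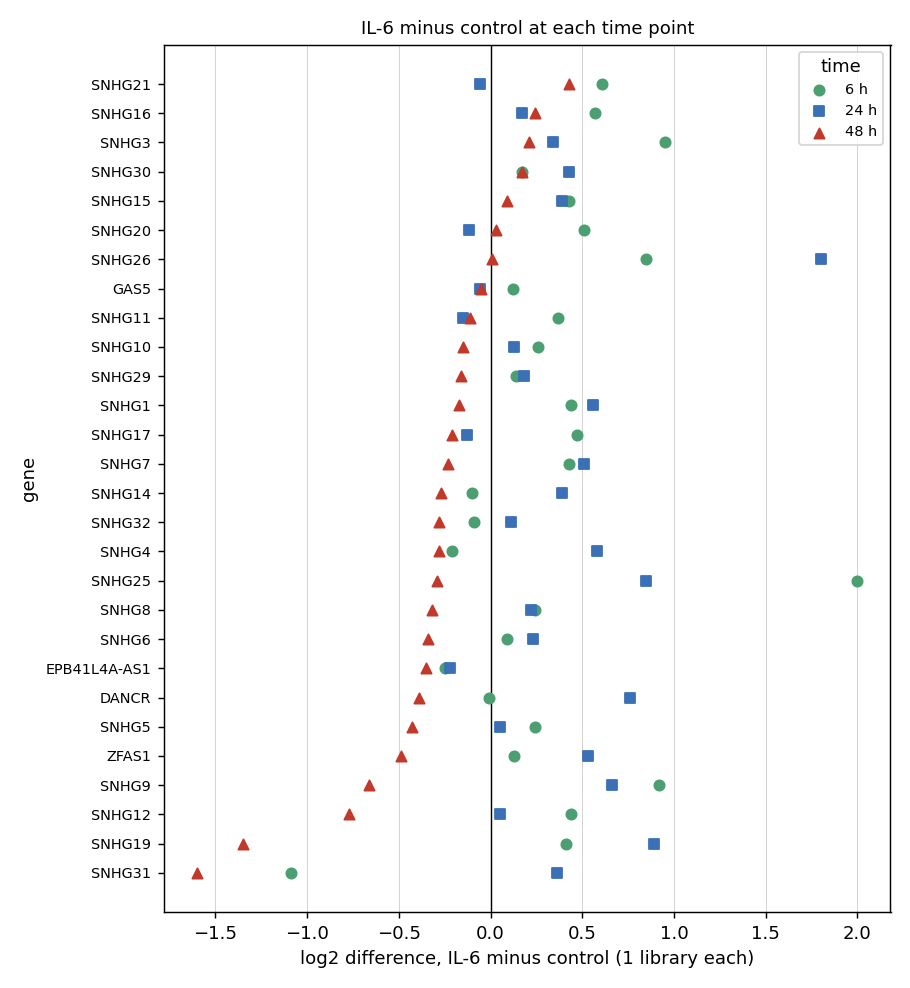
Log2 difference between the IL-6 and the control library (x axis) for each of the 28 host genes with 6 values (y axis, ordered by the 48 h difference). Circles are 6 h, squares 24 h and triangles 48 h, each from 1 library per arm. At 48 h 21 triangles lie below 0, while 22 circles and 22 squares lie above 0.

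In the time courses, the larger differences were in the IL-6 arm between 24 and 48 h. There, 25 of 28 members were lower at 48 h than at 24 h, with a median of -0.47, whereas the median of all tested genes was -0.00 and 50.1% of them were below 0. A difference of at least 1.5-fold downward was reached by 13 members (13.7% of all tested genes) and upward by none (12.3% of all). In the control arm over the same interval 17 members were lower and 11 higher, with a median of -0.10 against -0.05 over all genes, 56.5% of which were below 0. Only SNHG30 was at least 1.5-fold lower there (9.94% of all) and only SNHG4 at least 1.5-fold higher (6.87% of all).

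Between 6 and 24 h the medians of the members were small in both arms. In the control arm the median was 0.08 against 0.15 over all genes, with 17 members higher and 11 lower (64.1% of all tested genes were above 0), and its sign turned to -0.06 when library medians were set equal, which shifts this comparison by 0.14. SNHG25 and SNHG20 were at least 1.5-fold higher (18.6% of all) and SNHG4 and SNHG12 at least 1.5-fold lower (5.64% of all). In the IL-6 arm the median was 0.16 against 0.06, with SNHG31 and ZFAS1 at least 1.5-fold higher (16.0% of all) and SNHG12 at least 1.5-fold lower (8.04% of all). Over the whole course from 6 to 48 h, the control arm had a median of -0.01 against 0.09 over all genes, with 14 members higher and 14 lower, where 41.5% of all tested genes were below 0. Only SNHG25 was at least 1.5-fold higher (15.7% of all) and only SNHG31 at least 1.5-fold lower (6.55% of all). The IL-6 arm had a median of -0.45 from 6 to 48 h against 0.05 over all genes, 46.3% of which were below 0. Of the members 23 were lower, 12 of them by at least 1.5-fold (12.5% of all), and none at least 1.5-fold higher (18.5% of all).

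Across the 6 libraries, the median member value was -0.13, 0.02 and -0.07 in the control arm at 6, 24 and 48 h and 0.22, 0.24 and -0.29 in the IL-6 arm. The IL-6 48 h library held the lowest of the 6 values for 12 of 28 members, against 20.9% of all tested genes, and the highest for none. The highest value fell in the IL-6 6 h library for 10 members (17.2% of all tested genes) and in the IL-6 24 h library for 11 (17.2% of all).

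**Figure D2:**
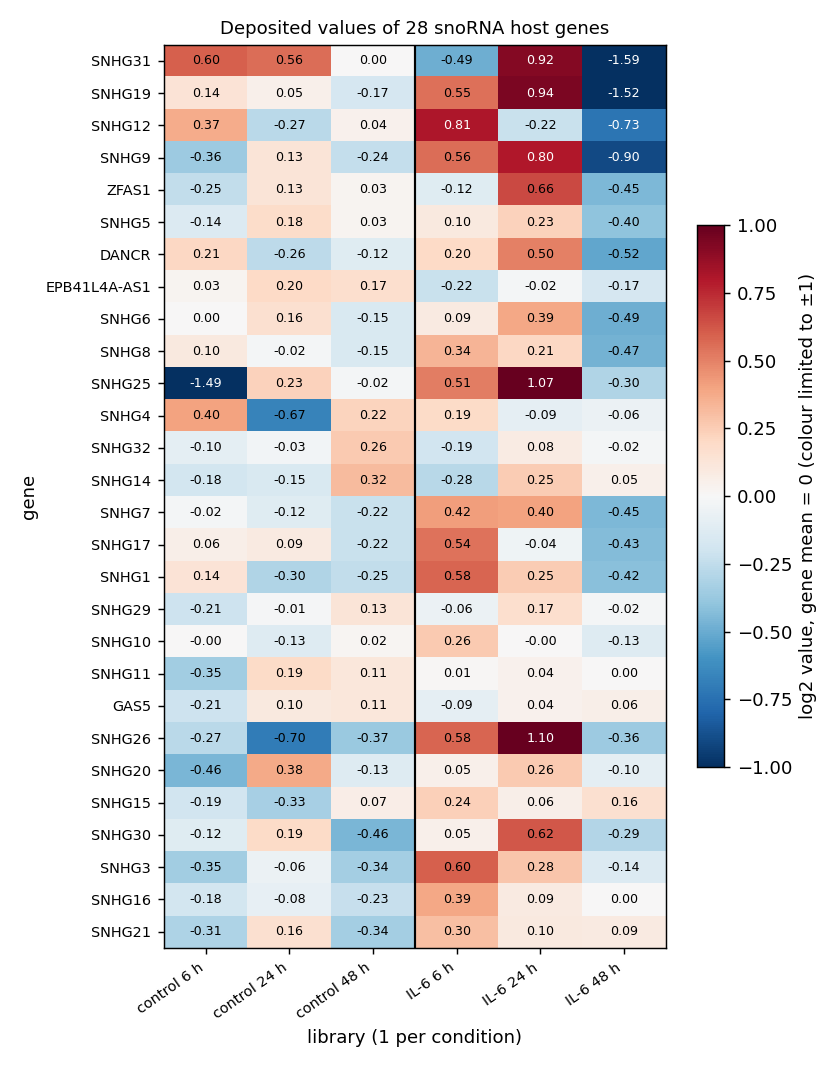
Deposited log2 values (gene mean 0) of the 28 host genes in the 6 libraries, with control libraries left and IL-6 libraries right of the line. Genes are ordered by the IL-6 minus control difference at 48 h and the colour is limited to ±1. The IL-6 48 h column is the lowest for 12 genes, among them SNHG19 at -1.52 and SNHG31 at -1.59. SNHG31 is near the lowest level accepted for testing.

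No member passed the threshold in the fits over all 6 libraries with a mean level of at least 1, while with a mean level of at least 10 SNHG1 and SNHG17 passed for 48 h minus 6 h, 2 of 20 members tested against 9.28% of all genes tested that way. The tests used limma with Benjamini-Hochberg adjustment over the 13528 tested genes at 0.05, and their replication is 3 time-matched pairs for IL-6 and 2 libraries, 1 per arm, for each time. For IL-6 minus control 0 of 28 members passed (0.251% of all tested genes passed), and 2 had an unadjusted p under 0.05 (8.97% of all). For 24 h minus 6 h 0 passed (1.91% of all) and 2 had an unadjusted p under 0.05 (17.5% of all). For 48 h minus 6 h 0 passed (3.89% of all) and 7, all lower at 48 h, had an unadjusted p under 0.05 (21.5% of all). For 48 h minus 24 h 0 passed (0.517% of all) and 9, all lower at 48 h, had an unadjusted p under 0.05 (11.8% of all). The smallest adjusted p-values of the members in these 4 limma contrasts were 0.445 for SNHG15, 0.216 for ZFAS1, 0.0863 for SNHG1 and 0.156 for SNHG6.

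Whether the IL-6 effect differed between times was tested with 1 residual degree of freedom, and again no member passed. For the effect at 6 h minus its mean at the other times, 0 of 28 passed (0.251% of all) and 0 had an unadjusted p under 0.05 (4.01% of all). The same model for 48 h was added after the values had been seen. There 0 of 28 passed (0.126% of all) and 8 members, all with a lower effect at 48 h, had an unadjusted p under 0.05 (8.12% of all), while 27 of the 28 estimates lay below 0 with a median of -0.45, against 0.00 over all genes. SNHG9 had the smallest p among the members, with an estimate of -1.45 (SE 0.33, limma adjusted p = 0.219). Without the control 48 h library, 6 members passed for 48 h minus 6 h (SNHG1, SNHG6, SNHG7, SNHG8, SNHG9 and SNHG19), against 8.48% of all tested genes. In 48 h minus 24 h 6 passed (SNHG5, SNHG6, SNHG8, SNHG9, SNHG19 and ZFAS1), against 3.001% of all. The 48 h level then rests on the IL-6 48 h library alone, which is assumed to vary like the other groups, so these calls restate the low values of that library and are no further evidence. Leaving out the IL-6 48 h library leaves the control 48 h library alone at that time, so that fit is no test of the hosts either. Without the control 6 h library SNHG17 alone passed for 48 h minus 6 h (3.17% of all), and without either 48 h library ZFAS1 alone passed for 24 h minus 6 h (4.17% of all).

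The box C/D hosts are described first. ZFAS1 (ENSG00000177410.13, chr20:49278178-49299600, GRCh38, + strand) lies antisense to ZNFX1 and carries the SNORD12 family. It stood at -0.25, 0.13 and 0.03 in the controls at 6, 24 and 48 h, and at -0.12, 0.66 and -0.45 with IL-6 at the same times. The IL-6 arm held both its highest and its lowest value, and the control values lay between them. Its IL-6 minus control difference was 0.13, 0.53 and -0.49 at 6, 24 and 48 h, a mean of 0.06 ± 0.51 (SD, n = 3), which is smaller than its spread. From 24 to 48 h its log2 difference was -1.12 in the IL-6 arm and -0.09 in the control arm.

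SNHG1 (ENSG00000255717.8, chr11:62851978-62855953, - strand) holds 6 SNORD rows. Its values were 0.14, -0.30 and -0.25 in the control arm and 0.58, 0.25 and -0.42 in the IL-6 arm. In both arms 6 h was the highest, and the IL-6 library of 48 h was the lowest of all. The pooled 48 h minus 6 h estimate was -0.70 (SE 0.20, limma adjusted p = 0.0863), and it was -0.37 without the IL-6 48 h library and -1.03 without the control 48 h library.

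SNHG5 (ENSG00000203875.13, chr6:85650491-85678932, - strand), host of SNORD50B, stood at -0.14, 0.18 and 0.03 in controls and at 0.10, 0.23 and -0.40 with IL-6. SNHG6 (ENSG00000245910.9, chr8:66920561-66926398, - strand), host of SNORD87, stood at 0.00, 0.16 and -0.15 in controls and at 0.09, 0.39 and -0.49 with IL-6. In both genes the arms lay within 0.24 of each other at 6 and 24 h and were farthest apart at 48 h, where IL-6 minus control was -0.43 and -0.34. The pooled 48 h minus 24 h estimate of SNHG6 was -0.60 (SE 0.16, limma adjusted p = 0.156), and it was -0.35 without the IL-6 48 h library.

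SNHG16 (ENSG00000163597.16, chr17:76557733-76565357, + strand) carries the SNORD1 family and did not follow the majority. Its values were -0.18, -0.08 and -0.23 in the control arm and 0.39, 0.09 and 0.00 in the IL-6 arm. IL-6 minus control was 0.57, 0.17 and 0.24, a mean of 0.33 ± 0.22 (SD, n = 3; limma adjusted p = 0.449) that was 0.20 without the 6 h pair.

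GAS5, SNHG29 and SNHG32 varied little over the libraries. GAS5 (ENSG00000234741.9, chr1:173858559-173868882, - strand) stood at -0.21, 0.10 and 0.11 in controls and at -0.09, 0.04 and 0.06 with IL-6. Both arms were lowest at 6 h, and IL-6 minus control was 0.12, -0.06 and -0.05, a mean of 0.01 ± 0.10 (SD, n = 3; limma adjusted p = 0.991). SNHG29 (ENSG00000175061.19, chr17:16438767-16478678, + strand), with SNORD49A, SNORD49B and SNORD65, stood at -0.21, -0.01 and 0.13 in controls and at -0.06, 0.17 and -0.02 with IL-6. SNHG32 (ENSG00000204387.14, chr6:31834608-31839766, + strand), with SNORD48 and SNORD52, stood at -0.10, -0.03 and 0.26 in controls and at -0.19, 0.08 and -0.02 with IL-6. In the controls both were highest at 48 h, in the IL-6 arm both were highest at 24 h, and at 48 h IL-6 minus control was -0.16 and -0.28.

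**Figure D3:**
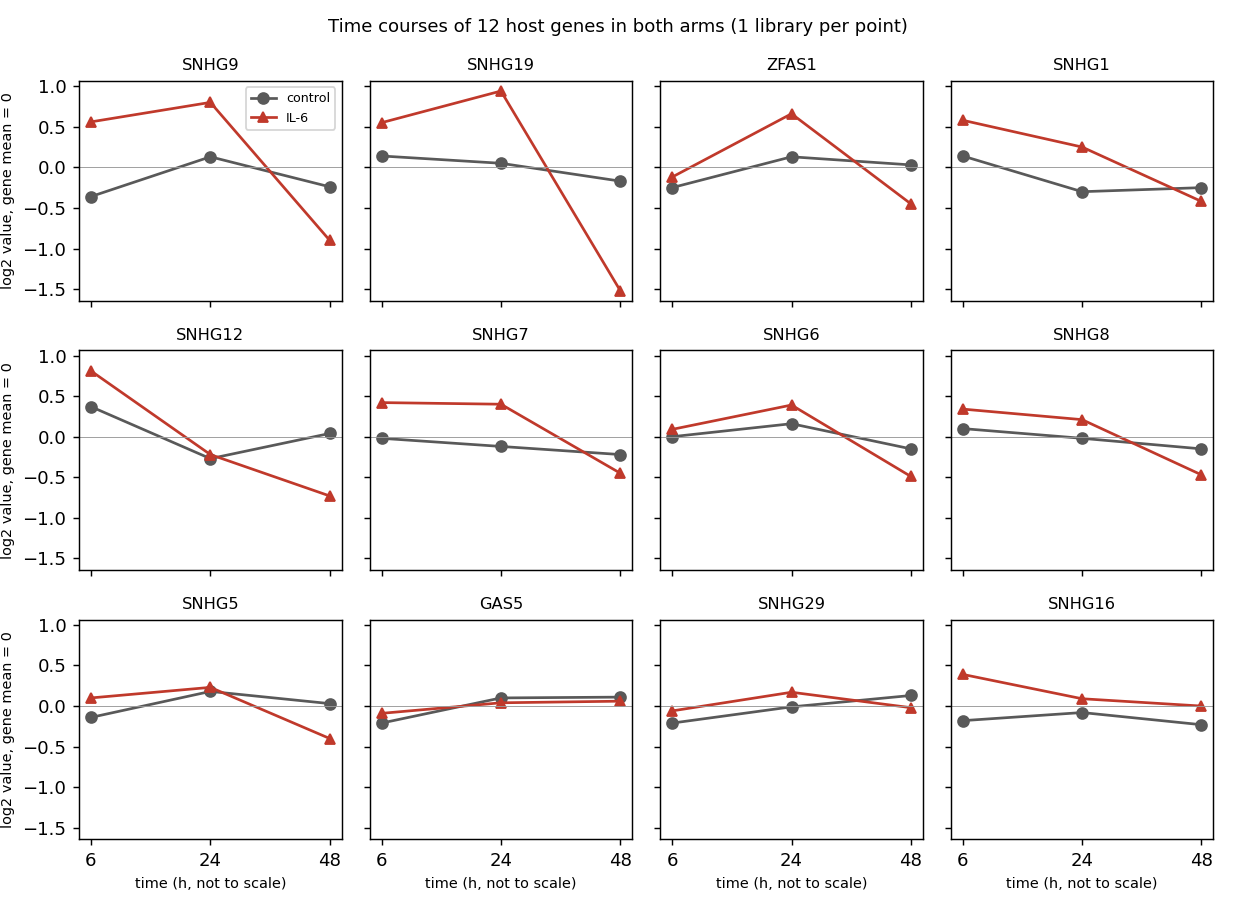
Deposited log2 values (y axis, gene mean 0) at 6, 24 and 48 h (x axis, not to scale) for 12 host genes, with control libraries as grey circles and IL-6 libraries as red triangles, 1 library per point. The 12 were picked for display without a stated rule and do not stand for all members. In all 12 but GAS5 and SNHG16 the IL-6 line is above the control at 24 h and below it at 48 h. Among hosts not shown, EPB41L4A-AS1 and SNHG15 lack this order, while DANCR and SNHG32 have it. In SNHG5 and SNHG12 the difference at 24 h is only 0.05. The IL-6 line of SNHG16 is above the control at each time, and GAS5 differs by at most 0.12 between arms.

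Among the H/ACA hosts, DANCR (ENSG00000226950.8, chr4:52712325-52723623, + strand), known for restraining differentiation and host of SNORA26, stood at 0.21, -0.26 and -0.12 in controls and at 0.20, 0.50 and -0.52 with IL-6. The arms were equal within 0.01 at 6 h, and IL-6 minus control was then 0.76 at 24 h and -0.39 at 48 h. SNHG8 (ENSG00000269893.9, chr4:118278705-118285316, + strand), host of SNORA24, stood at 0.10, -0.02 and -0.15 in controls and at 0.34, 0.21 and -0.47 with IL-6. Both arms were lower at each later time, and 48 h minus 6 h was -0.81 in the IL-6 arm and -0.25 in the controls. Its effect at 48 h minus that at the other times was -0.55 (SE 0.18, limma adjusted p = 0.436).

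SNHG15 (ENSG00000232956.10, chr7:44983019-44986961, - strand), host of SNORA9, stood at -0.19, -0.33 and 0.07 in controls and at 0.24, 0.06 and 0.16 with IL-6. IL-6 minus control was 0.43, 0.39 and 0.09, above 0 at each time, with a mean of 0.30 ± 0.19 (SD, n = 3; limma adjusted p = 0.445). EPB41L4A-AS1 (ENSG00000224032.8, chr5:112160526-112164818, + strand), antisense to EPB41L4A and host of SNORA13, stood at 0.03, 0.20 and 0.17 in controls and at -0.22, -0.02 and -0.17 with IL-6. IL-6 minus control was -0.25, -0.22 and -0.35, below 0 at each time, with a mean of -0.27 ± 0.07 (SD, n = 3; limma adjusted p = 0.636). This SD was the smallest of the 28 members, but the difference missed the threshold.

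SNHG12 (ENSG00000197989.15, chr1:28578538-28583132, - strand) carries snoRNAs of both classes (SNORA44, SNORA61, SNORA16A and SNORD99). It stood at 0.37, -0.27 and 0.04 in controls and at 0.81, -0.22 and -0.73 with IL-6. From 6 to 24 h the log2 difference was -0.64 in controls and -1.03 with IL-6, and from 24 to 48 h it was 0.30 and -0.51. IL-6 minus control was 0.44, 0.05 and -0.77 at 6, 24 and 48 h, so that the arms crossed after 24 h. Its pooled estimates were -0.83 (SE 0.34, limma adjusted p = 0.246) for 24 h minus 6 h and -0.94 (SE 0.34, limma adjusted p = 0.15) for 48 h minus 6 h. The first was -0.44 without the IL-6 6 h library, and the second was -0.43 without the IL-6 48 h library and -1.45 without the control 48 h library.

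The other members are given by their ranges. SNHG9 and SNHG19, hosts of SNORA78 and SNORD60 that are listed at only 471 and 562 bases, had IL-6 arm values from -0.90 to 0.80 and from -1.52 to 0.94 and control values from -0.36 to 0.13 and from -0.17 to 0.14. The IL-6 effect at 48 h of SNHG19 was lower than at the other times by an estimate of -2.00 (SE 0.50, limma adjusted p = 0.278). SNHG7 had IL-6 minus control at 0.43, 0.51 and -0.23, and SNHG17 at 0.47, -0.13 and -0.21. SNHG25, SNHG26 and SNHG31, whose recovered mean levels of 1.61, 2.16 and 1.89 were near the minimum of 1 that a tested gene had to reach in an arbitrary unit, had SDs over the 3 IL-6 minus control differences of 1.14, 0.90 and 1.01. The remaining 8 members (SNHG3, SNHG4, SNHG10, SNHG11, SNHG14, SNHG20, SNHG21 and SNHG30) had SDs from 0.15 to 0.48. SNHG22 was listed at -0.16, -0.12 and -0.65 in controls and at 0.18 and 0.75 in the IL-6 libraries of 6 and 48 h. SNHG28 was listed at -2.90 and 1.61 in the controls of 6 and 24 h and at 0.90, -1.56 and 1.94 with IL-6, so that high and low values occurred in both arms.

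Members were also grouped by the class of the snoRNA rows inside them. The 11 with SNORD rows had median IL-6 minus control differences of 0.17, 0.39 and -0.27 at 6, 24 and 48 h, and the 11 with SNORA rows had 0.37, 0.36 and -0.28. The 3 with SCARNA rows (SNHG10, SNHG20 and SNHG21) had 0.51, -0.06 and 0.03. From 24 to 48 h in the IL-6 arm the medians were -0.67, -0.42 and -0.13 in the same order. The 6 members with the TOP letters printed above had medians of 0.18, 0.32 and -0.46 at the 3 times. All 6 were lower with IL-6 at 48 h, from -1.35 to -0.28, as were 21 of all 28 members and 55.1% of all tested genes. The 18 tested members whose window lacks them had 0.31, 0.20 and -0.15, with 48 h differences from -1.60 to 0.43. Among the 18 are GAS5 and SNHG14, whose windows lie outside their listed intervals. No test was made between these subsets, whose ranges overlap.

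Gene length moved with the same pattern in all genes. The 1235 tested genes listed at under 1000 bases had median IL-6 minus control differences of 0.18, 0.16 and -0.21 at the 3 times and -0.50 from 24 to 48 h in the IL-6 arm, whereas longer classes lay between -0.12 and 0.05 in these IL-6 minus control medians. Of the members, 4 (SNHG9, SNHG19, SNHG21 and SNHG25) are that short. With library medians set equal within 10 length classes, the member medians were 0.27, 0.36 and -0.17 and the IL-6 arm from 24 to 48 h stood at -0.47, with 24 of 28 lower. The part of length in the members' values beyond this was not tested. The 1377 tested lncRNA genes had medians of 0.05, -0.00 and -0.11.

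The protein-coding snoRNA hosts, largely ribosomal protein and translation factor genes, had the same signs as the noncoding hosts with smaller sizes. Their 45 tested genes had medians of 0.11, 0.05 and -0.16 at 6, 24 and 48 h and of -0.21 from 24 to 48 h in the IL-6 arm. None passed the threshold for IL-6 (0.251% of all tested genes did), and 1 passed for time, EEF2, the elongation factor that moves the ribosome along. It rose by 0.62 from 6 to 48 h (SE 0.14, limma adjusted p = 0.0406), where 3.89% of all tested genes passed. The call was kept in 6 of 11 alternative settings. Such counts of settings, here and below, leave out the fit without the variance trend, in which no gene passed. The difference between the noncoding and the protein-coding hosts was not tested. The 17 genes of snoRNP core and assembly, whose products bind and stabilise snoRNAs, had medians of 0.25, 0.13 and -0.12. From 6 to 48 h SNU13, the protein that nucleates box C/D particles, fell by 0.70 (SE 0.14, limma adjusted p = 0.0286). NHP2, a core H/ACA protein, fell by 0.66 (SE 0.14, limma adjusted p = 0.035). The other members of the list did not pass, and 3.89% of all tested genes passed in this contrast. These calls were kept in 6 and 4 of 11 alternative settings.

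Of 21 nonsense-mediated decay factors, none passed for IL-6 (0.251% of all tested genes did) and 1 passed for time. MAGOH, a core protein of the exon junction complex, fell by 0.66 from 6 to 48 h (SE 0.14, limma adjusted p = 0.0307). The call was kept in 6 of 11 alternative settings, and 1 of 21 is near the 3.89% of all tested genes that passed there. The list's medians for IL-6 minus control were 0.04, -0.05 and -0.20. Of 16 natural decay targets other than hosts, none passed for IL-6 (0.251% of all) and 4 passed from 6 to 48 h, all higher (3.89% of all). ASNS, asparagine synthetase, rose by 2.69 (SE 0.27, limma adjusted p = 0.00352), CDKN1A, the cell cycle inhibitor p21, by 1.59, CARS1, a cysteinyl-tRNA synthetase, by 1.57 and ATF4, the transcription factor of the integrated stress response, by 1.28. From 6 to 24 h 3 of them passed (CDKN1A, CARS1 and ATF4, higher by between 0.64 and 1.72), against 1.91% of all tested genes. From 24 to 48 h ASNS alone did (1.73), against 0.517% of all. The call of ATF4 at 24 h was kept in 3 of 11 alternative settings and that of ASNS from 24 to 48 h in 5 of 12. The list's IL-6 minus control medians were 0.15, 0.10 and 0.24. At 48 h, where the median of the hosts was below 0, 9 of the 16 were above 0. TBL2, SRSF2, SRSF3, SRSF6, SRSF7, TRA2B and PTBP2 were below it, from -0.61 in PTBP2 to -0.03 in TBL2, so the list did not move as 1 group. Of 19 genes in the control of TOP mRNA translation, 2 passed from 6 to 48 h (3.89% of all). MLST8, an mTOR complex subunit, rose by 0.90 (SE 0.15, limma adjusted p = 0.0131). EIF4EBP1, the translation repressor that mTOR phosphorylates, rose by 1.05 (SE 0.15, limma adjusted p = 0.00692). EIF4EBP1 also rose by 0.90 from 24 to 48 h (0.517% of all passed), a call kept in 6 of 11 alternative settings. None of the 19 passed for IL-6 (0.251% of all). Transcript levels of these factors are not measures of translation or decay, which the libraries do not hold.

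**Figure D4:**
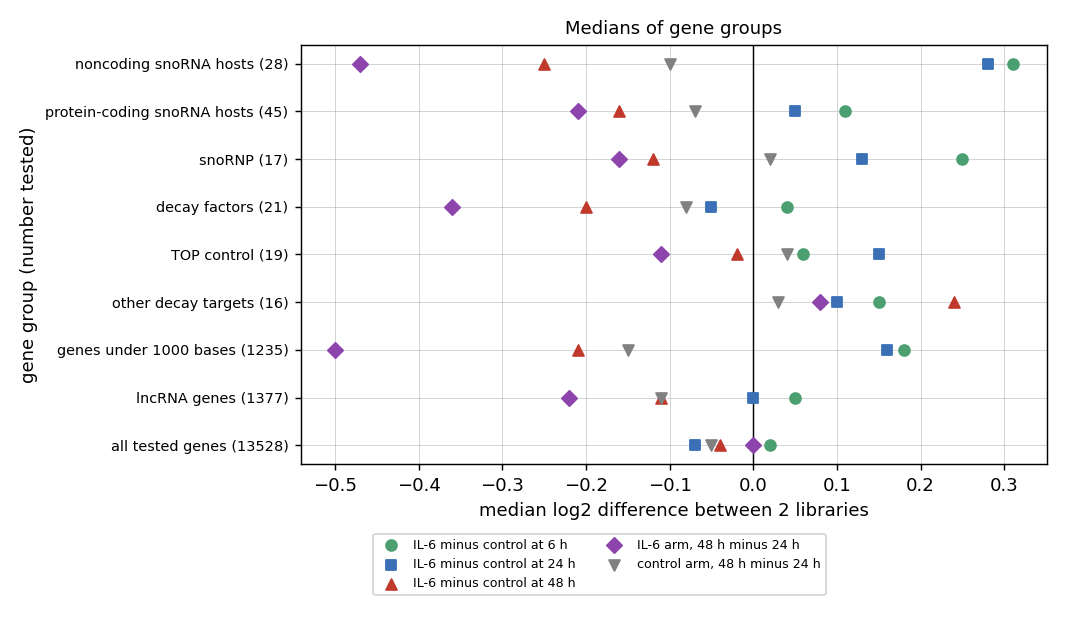
Median log2 difference between 2 libraries (x axis) for each gene group (y axis, number tested in brackets). Circles, squares and upward triangles are IL-6 minus control at 6, 24 and 48 h, and diamonds and downward triangles are 48 h minus 24 h in the IL-6 and in the control arm. The noncoding hosts lie at 0.31, 0.28 and -0.25 with the IL-6 arm at -0.47, genes under 1000 bases lie at 0.18, 0.16 and -0.21 with -0.50, and all tested genes lie between -0.07 and 0.02.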

How the data were processed

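Per the labels' protocols, cDNA was amplified from total RNA with the SMART-Seq v4 kit and made into Nextera XT libraries. The genome build was GRCh38 (hg38), per the submitters' processing notes. Aligner, counter, annotation release and normalization: not given in the sources used here. The authors deposited 1 log2 value per gene and library, centred by them on the mean of each gene, with no read counts. Gene positions and lengths are those in the tables. Levels, used only for the filter, the variance trend and a pseudocount alternative, were recovered where a gene's values stood in ratios of whole numbers of a step taken as 0.001 (relative tolerance 2e-06, or 6e-07 above 5000 steps), for 90.4% of 17388 genes with 6 values. The other 1670, with 8 of the members, were treated as high.

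A mean level of 1 or more, beside 6 values, was required, and the 13528 genes left were fitted with limma 3.58.1 (R 4.3.3; time point plus agent, robust empirical Bayes, trend on level; 2 residual degrees of freedom, median prior 8). Whether the time points are separate cultures is not labelled, and the p-values reflect no more than the spread among these libraries, which may be technical. On simulated data with 13528 genes the IL-6 contrast recovered 67% of 100 genes changed by log2 1 and 95% of 100 changed by log2 2, with 11 false calls. Recovery was not tested for smaller differences, or for differences whose sign is not the same at all times. The members' median IL-6 minus control differences were 0.31, 0.28 and -0.25 at 6, 24 and 48 h. Members and lists were chosen with earlier results of these data known. The 13 well-known hosts are given in full, with any member past a threshold, and the rest by range. Alternatives were equal library medians, no level filter, a level of at least 10, no variance trend, non-robust shrinkage, log2(level + 1), leaving out libraries, and, added later, medians within 10 length classes and the 48 h term.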

Additional observations from a re-analysis of the deposited data

How the results depend on the processing

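The count of members past the threshold stayed at 0 for IL-6 minus control and for both tests of a change of the IL-6 effect, under every alternative run (the latter could not be refitted with a library left out). With a mean level of at least 10, which leaves 20 members, 2 (SNHG1 and SNHG17) passed for 48 h minus 6 h, near the 9.28% of all genes. Leaving out 1 library at a time gave 0 to 1 members for 24 h minus 6 h (ZFAS1, without the control 48 h or the IL-6 48 h library), 0 to 6 for 48 h minus 6 h (6 without the control 48 h library, SNHG17 alone without the control 6 h library) and 0 to 6 for 48 h minus 24 h (6 without the control 48 h library). Why these counts moved was not tested, beyond the fewer libraries. Of 601 recomputed estimates of the 13 hosts given in full, 10 passed, with their direction kept, 512 stayed within 1 SE and 79 moved further without passing. Many of the 512 could not have moved. No level filter, a level of at least 10, no variance trend and non-robust shrinkage change only the genes fitted or the variance. They leave the estimate of a gene as it is, so the 512 are no measure of stability. Without the variance trend 0 of all tested genes passed in any contrast. With it, the genes called among all tested ranged from 13 to 36 (34 in the report's fit) for IL-6, 146 to 346 (259) for 24 h minus 6 h, 247 to 704 (526) for 48 h minus 6 h and 8 to 112 (70) for 48 h minus 24 h, and with libraries left out from 17 to 121, 30 to 564, 114 to 1147 and 9 to 406. For the IL-6 effect at 6 h and at 48 h against the other times they ranged from 20 to 39 (34) and 2 to 31 (17). Equal library medians moved the higher calls from 217 of 259 to 141 of 212 for 24 h minus 6 h and from 336 of 526 to 282 of 572 for 48 h minus 6 h. The calls of EEF2, SNU13, NHP2 and MAGOH held in 6, 6, 4 and 6 of 11 alternatives with the trend, and that of FCGR1A in 4 of 8. Beyond the pairing of the arms by time point that the fit holds, no paired analysis was possible because each condition has 1 library, so that no replicate number recurs within it. The unknown depth limits what can be said of members at low levels.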
